A study of Mus musculus with 13 samples.

Results

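The genes described here are 10 components of the Notch signalling pathway, taken by name from the 20662 gene symbols listed for 2 spermatogonial samples: the receptors Notch1, Notch2 and Notch3, the ligands Jag1, Jag2, Dll1 and Dll4, and the target genes Hes1, Hes5 and Hey1. All 10 were listed in both tables. The series sequenced ribosomal-RNA-depleted total RNA of germ cells from testes of C57BL/6 mice aged 8 postnatal weeks, and its 13 samples cover spermatocytes (5 samples), spermatids (5), mature sperm (1) and spermatogonia (2). The spermatogonial samples are titled KIT_AGSC and THY1_AGSC, after the receptor of stem cell factor found on differentiating spermatogonia and a surface antigen used to enrich undifferentiated ones. The labels name no genetic change and no treatment for either, and do not say how many animals or which sort the cells came from. The other 11 samples were not analysed here.

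Notch receptors are single-pass membrane proteins that are activated by ligands of the Jagged and Delta-like families on a neighbouring cell. Ligand binding lets ADAM metalloproteases and then gamma-secretase cut the receptor, and the freed intracellular part enters the nucleus, joins the DNA-binding protein RBPJ and a Mastermind coactivator, and switches on Hes and Hey genes, which encode transcriptional repressors. In the testis the pathway has been studied mostly between germ cells, which carry ligands such as JAG1, and Sertoli cells, the supporting cells of the tubule, and it also works in blood vessels.

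Each spermatogonial label has 1 library, so the values below compare 2 libraries, have no replicate error and carry no p-value, and neighbouring levels in an order cannot be separated by a spread. Values were taken as FPKM (fragments per kilobase of transcript, scaled to the mapped total). In the table deposited for KIT_AGSC the values stand under the heading Thy1, and in the table for THY1_AGSC under the heading Kit. Kit was listed at 0 in the KIT-labelled library and at 36.7 FPKM in the THY1-labelled library, and Thy1 at 78.8 and 0.723 FPKM, so both transcripts run against the titles. Directions below follow the titles, and every one would turn if the titles were exchanged. Total counts are unknown. FPKM multiplied by transcript length forms a low-end cluster taken as the worth of 1 fragment. That worth was about 6.0 to 6.4 times larger in the KIT-labelled library, which is therefore the shallower one, and 33.2% of symbols were listed at 0 there against 24.2%. Estimated fragments below are a gene's FPKM times its length divided by that worth, given as a range over 2 settings of the low end. They are approximate, and they show only which values could rest on very few fragments. In sorted bulk cells, fewer cells of a type and less RNA per cell cannot be told apart.

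Of the 10 genes, the 8 that reached 1 FPKM in either library split into opposite sets, with receptors, ligands and targets in each. Notch1, Notch3, Dll1 and Hes5 were at least 2-fold higher in the KIT-labelled library on the log2(FPKM + 1) scale. Notch2, Jag1, Jag2 and Hes1 were at least 2-fold higher in the THY1-labelled library. Dll4 and Hey1 did not reach 1 FPKM in either library and were not counted. So of 8 members that reached the minimum, 4 were higher on each side and 0 lay within 2-fold. Of all 15573 genes that reached 1 FPKM in either library, 39.5% were at least 2-fold higher in the KIT-labelled library, 41.1% in the THY1-labelled library and 80.6% in either direction. A share of 4 in 8 on each side is near this background, so how many members differed is not particular to them, and the description below is of which members lay on which side.

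**Figure D1:**
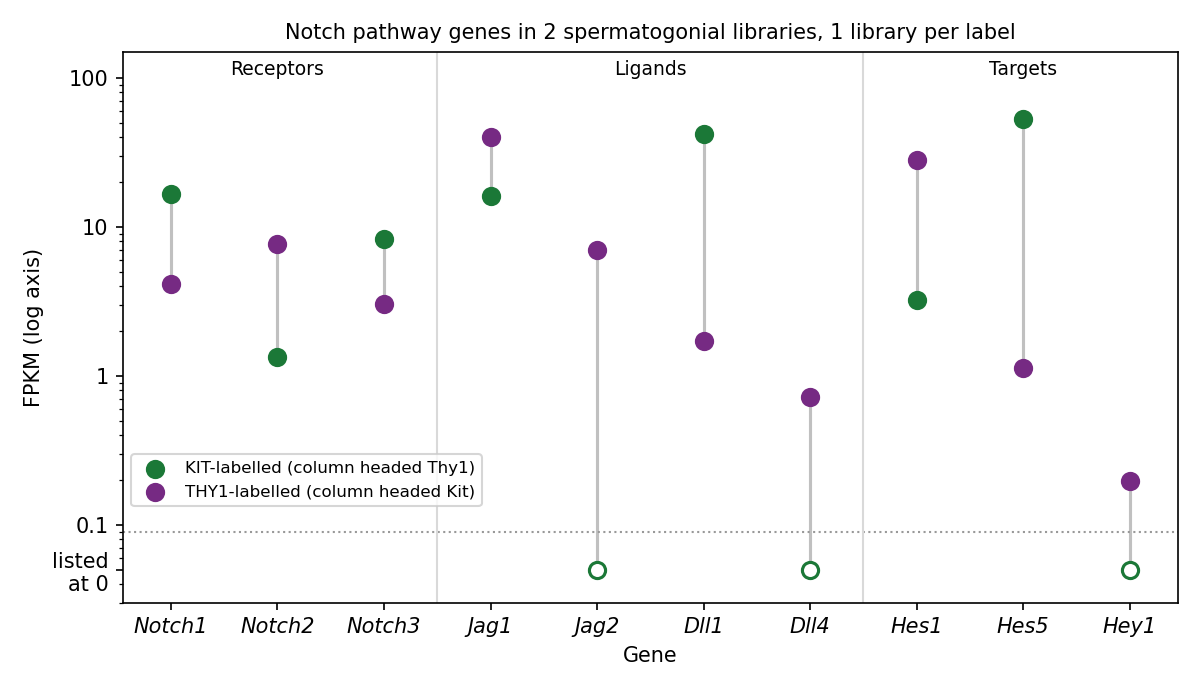
FPKM (log axis) of the 10 genes in the KIT-labelled library (green) and the THY1-labelled library (purple), 1 library each. Open points mark genes listed at 0, and a grey line joins the values of a gene. Each role holds genes on either side, and Hes5 spans from 52.7 to 1.13 FPKM.

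Among the receptors, Notch1 was at 16.5 FPKM in the KIT-labelled library and at 4.11 FPKM in the THY1-labelled library, a ratio of 4.02. Notch1 is the receptor best known from T cell development and from vessels. Its value lay at percentile 68.7 of genes above 0 in the former library and at percentile 38.5 in the latter. It rested on an estimated 45.8 to 57.3 and 68.2 to 91.4 fragments, so by this estimate neither value hangs on a handful of reads. Notch3, a receptor prominent in vascular smooth muscle, was at 8.26 and 3.03 FPKM in the same order, a ratio of 2.73. It rested on an estimated 19.3 to 24.2 and 42.5 to 57.0 fragments. Its difference of 1.20 on the log2(FPKM + 1) scale was the smallest of the 8 and dropped under 2-fold with a larger pseudocount or with scaling to a median ratio of 1.

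Notch2, a broadly expressed receptor, ran the other way. It was at 1.34 FPKM in the KIT-labelled library and at 7.66 FPKM in the THY1-labelled library, 5.73 times higher in the latter. The lower value rested on an estimated 4.1 to 5.1 fragments and the higher one on 141 to 188. Notch2 was thus the lowest of these receptors in the KIT-labelled library and the highest of them in the THY1-labelled library. Notch4, the remaining mammalian receptor and not among the 10, was at 14.6 and 1.63 FPKM with the KIT-labelled library first, on the side of Notch1 and Notch3.

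Among the ligands, Jag1 was abundant in both libraries, at 16.0 FPKM in the KIT-labelled library and 40.0 FPKM in the THY1-labelled library. The ratio of 2.50 toward the latter was the smallest ratio among the 7 counted members above 0 in both libraries. Jag1 lay at percentiles 68.2 and 81.6 of genes above 0, and an estimated 26.2 to 32.8 and 392 to 526 fragments stood behind it. It was the most abundant of the 10 genes in the THY1-labelled library. Jag2, the second Jagged ligand, was listed at 0 in the KIT-labelled library and at 7.02 FPKM in the THY1-labelled library. At its transcript length 1 fragment in the KIT-labelled library would be worth about 0.54 to 0.67 FPKM, and a listed 0 in these tables can also be a failed estimate.

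Dll1, a Delta-like ligand, was at 42.0 FPKM in the KIT-labelled library and at 1.70 FPKM in the THY1-labelled library, a ratio of 24.7. It lay at percentile 84.4 of genes above 0 in the former and at percentile 25.2 in the latter. The estimates were 43.9 to 55.0 fragments in the former and 10.6 to 14.3 in the latter. Dll4, the Delta-like ligand of sprouting vessels, was listed at 0 in the KIT-labelled library and stood at 0.719 FPKM in the THY1-labelled library. That value is close to what 1 fragment of this transcript would be worth in the KIT-labelled library (0.73 to 0.91 FPKM), so a level of this size was at the edge of detection there. Dll3, which acts on Notch inside its own cell and is not among the 10, was at 9.42 and 1.84 FPKM with the KIT-labelled library first.

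Among the targets, Hes5 differed most of all the members. It encodes a basic helix-loop-helix repressor that is a classical readout of Notch in neural tissue. It was at 52.7 FPKM in the KIT-labelled library and at 1.13 FPKM in the THY1-labelled library, a ratio of 46.6 and a difference of 4.66 on the log2(FPKM + 1) scale. It was the most abundant of the 10 in the former library, at percentile 87.4 of genes above 0, and lay at percentile 19.9 in the latter. The estimates were 19.6 to 24.5 fragments against 2.5 to 3.4, so the size of the ratio rests on very few fragments on its low side.

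Hes1, the most widely expressed Notch target of this family and also a target of other pathways, ran opposite to Hes5. It was at 3.20 FPKM in the KIT-labelled library and at 27.8 FPKM in the THY1-labelled library, 8.70 times higher in the latter. Its percentile among genes above 0 was 30.6 in the former and 74.8 in the latter. The lower value corresponds to an estimated 1.4 to 1.7 fragments and the higher to 71.4 to 95.8, so the size of this ratio is poorly fixed. Hey1, a target best known in vessels and heart, was listed at 0 in the KIT-labelled library and at 0.196 FPKM in the THY1-labelled library, which is about 0.83 to 1.1 fragments. Hey1 was the lowest member in each library, a place it shared with Jag2 and Dll4 in the KIT-labelled library.

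RBPJ recognises a core motif, TGGGAA, which sits in the longer form GTGGGAA at many Notch target promoters, and Hes proteins bind N boxes (CACNAG). These motifs were searched on both strands in the 250 bases before each RefSeq start. The Hes5 promoter is shown because Hes5 had the largest difference of the 10, and that of Nrarp, a Notch target and feedback inhibitor that was at 15.1 and 1.33 FPKM with the KIT-labelled library first, because it lay on the same side. Capitals mark GTGGGAA in Hes5 and CACNAG in Nrarp, on either strand. Both are on the plus strand of GRCm38.p6, at chr4:154960673-154960922 and chr2:25180508-25180757.
Hes5: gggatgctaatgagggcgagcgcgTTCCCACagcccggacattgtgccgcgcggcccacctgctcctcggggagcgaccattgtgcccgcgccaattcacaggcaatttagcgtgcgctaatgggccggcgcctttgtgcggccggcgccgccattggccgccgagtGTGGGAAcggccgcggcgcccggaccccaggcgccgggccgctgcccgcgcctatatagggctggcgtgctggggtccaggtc
Nrarp: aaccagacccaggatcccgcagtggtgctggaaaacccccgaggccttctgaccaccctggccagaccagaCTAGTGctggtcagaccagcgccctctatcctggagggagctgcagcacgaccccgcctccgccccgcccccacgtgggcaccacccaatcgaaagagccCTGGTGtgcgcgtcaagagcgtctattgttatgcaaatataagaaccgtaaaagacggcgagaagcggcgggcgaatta

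The Hes5 window holds GTGGGAA on the plus strand 83 to 77 bases before the start and on the minus strand 226 to 220 bases before it. Of 32851 RefSeq promoter windows of the same length, 5.42% held GTGGGAA at least once and 0.161% held it 2 or more times, and 21.6% held the shorter TGGGAA. Of the 10 members 8 had a RefSeq window, with 9 windows in all, and 1 of the 8 held either form, which was Hes5. The search covered 19 receptor, ligand, Hes, Hey and Nrarp genes, of which 14 had a window and 3 held GTGGGAA. Besides Hes5 these were Hes7, listed at 0 in both libraries, and Hey2, at 1.05 FPKM against a listed 0. Hes1 and Hey1 had no window and were not searched, so Hes5 cannot be set beside them here. The Nrarp window held neither form. N boxes stood in the windows of Notch1, Notch2, Notch3 and Dll4, 4 of 8 members, while 36.7% of all windows held one. Nrarp had an N box 179 to 174 and another 79 to 74 bases before its start, both on the minus strand. These matches describe letters in the reference, and no binding was measured.

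Ratios between genes of the same role inside 1 library do not depend on how the libraries are scaled to each other, and each of the 4 given here crossed 1. Notch1 stood at 12.4 times the level of Notch2 in the KIT-labelled library and at 0.537 times that level in the THY1-labelled library. Notch3 stood at 6.18 times Notch2 in the former and at 0.396 times in the latter. Among ligands, Dll1 was at 2.63 times the level of Jag1 in the KIT-labelled library and at 0.0425 times in the THY1-labelled library. Among targets, Hes5 was at 16.5 times the level of Hes1 in the former and at 0.0406 times in the latter. The order of the 10 levels therefore differed between the libraries. Hes5, Dll1, Notch1 and Jag1 led in the KIT-labelled library, and Jag1, Hes1, Notch2 and Jag2 led in the THY1-labelled library. These pairs were chosen after their values were seen. In each pair the first gene had the higher GC content, a difference that such ratios do not remove and whose part was not tested. Hes1 in the KIT-labelled library stands for about 1.4 to 1.7 fragments and Hes5 in the THY1-labelled library for 2.5 to 3.4. The size of both ratios of Hes5 to Hes1 is therefore poorly fixed.

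**Figure D2:**
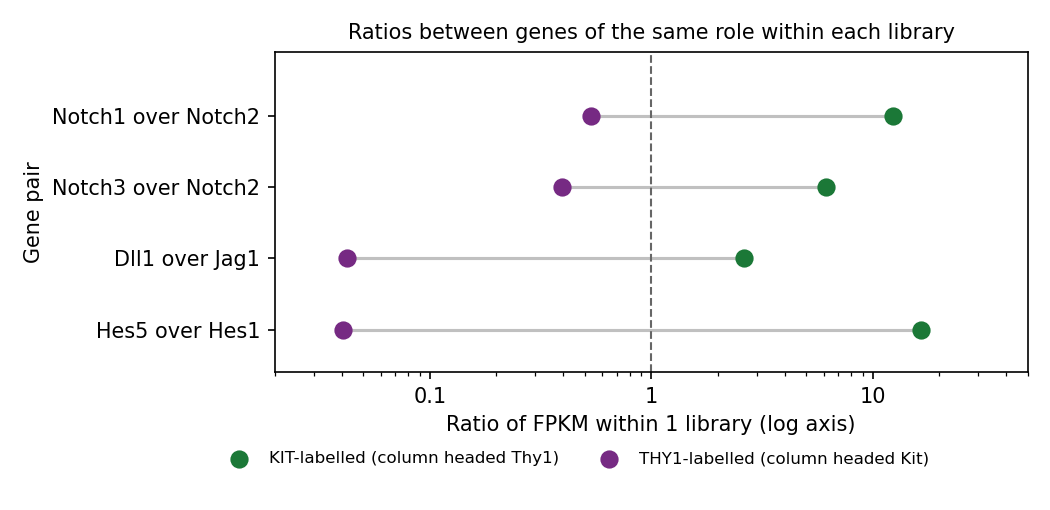
Ratio of FPKM between genes of the same role within each library (log axis), for the KIT-labelled library (green) and the THY1-labelled library (purple). The dashed line marks equal levels. Each pair lies above 1 in the KIT-labelled library and below 1 in the THY1-labelled library, from 16.5 to 0.0406 for Hes5 over Hes1. Hes1 in the KIT-labelled library and Hes5 in the THY1-labelled library rest on very few fragments.

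Of the 6 Hes and Hey genes outside the members, 4 were higher in the KIT-labelled library, 1 lay within 2-fold and 1 did not reach 1 FPKM. Of all counted genes, 39.5% were higher in the KIT-labelled library and 41.1% in the THY1-labelled library. With Hes1, Hes5, Hey1 and Nrarp the list holds 10 genes, of which 8 reached 1 FPKM, 6 were higher in the KIT-labelled library (4 with a pseudocount of 5 or a minimum of 5 FPKM) and 1, Hes1, in the THY1-labelled library. Hes3 was at 14.1 FPKM in the KIT-labelled library against 0.435, and Hes6, an inhibitor of Hes1 activity, at 14.1 against 0.913. The values in the THY1-labelled library correspond to about 1.4 to 1.9 fragments for Hes3 and 2.1 to 2.9 for Hes6. Hes2 was at 3.93 against 0.147 FPKM, the latter about 0.65 to 0.87 fragments. Hey2 was at 1.05 FPKM, about 0.78 to 0.98 fragments, against a listed 0, and Heyl at 0.750 against 1.42 FPKM. Hes7 was listed at 0 in both libraries. The median difference of this list was 2.45 on the log2(FPKM + 1) scale, and 2.79 over its 7 genes above 0 in both libraries, beside -0.0026 and 0.42 for all genes. The last genes were named to complete the list, after their values were seen.

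Genes that act on ligands and receptors lay on both sides. Beside the counts in this paragraph, 39.5% of all counted genes were higher in the KIT-labelled library and 41.1% in the THY1-labelled library. The Mib and Neurl families of ubiquitin ligases include enzymes that drive the ligand uptake needed for signalling. That role is not claimed here for Neurl2 or Neurl3. Of 6 listed genes of these families, 4 were higher in the KIT-labelled library (2 with a pseudocount of 5 or a minimum of 5 FPKM) and 1 in the THY1-labelled library. That 1 was Mib1, the main ligase for Jagged and Delta-like ligands, at 95.4 FPKM in the THY1-labelled library against 0.899, while Neurl2 was at 14.7 against 105.9 FPKM and Neurl3 at 0.312 against 3.20. The lower Mib1 value stands for about 2.7 to 3.4 fragments and the lower Neurl3 value for 1.4 to 1.9. Of 5 counted enzymes that put sugars on the receptors, 2 were higher in the KIT-labelled library (3 under 3 of the alternatives) and 1 in the other (0 with a pseudocount of 5, a minimum of 5 FPKM or only genes above 0 in both). The O-fucosyltransferase Pofut1 was at 22.3 FPKM in the KIT-labelled library against 4.53 and the O-glucosyltransferase Ktelc1 (now Poglut1) at 74.8 against 7.33. The xylosyltransferase Gxylt2 was listed at 0 there and at 4.96 FPKM in the THY1-labelled library. Both counted noncanonical ligands, Dlk2 (4.04 against 0.926 FPKM) and Cntn1 (1.39 against 0.190 FPKM), were higher in the KIT-labelled library, on an estimated 1.9 to 3.9 fragments in each library. That count of 2 dropped to 0 with a pseudocount of 5 and to 1 with scaling to a median ratio of 1.

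Of 9 counted genes of proteases that cut Notch, 5 were higher in the THY1-labelled library and 3 in the KIT-labelled library. The shares of all counted genes were 41.1% and 39.5%. Adam10, the protease that makes the ligand-dependent cut, was at 47.9 FPKM in the THY1-labelled library against 0.591. The latter stands for about 0.79 to 0.99 fragments, so the size of this gap is poorly fixed. Psen2, a subunit of gamma-secretase, was at 17.4 FPKM there and listed at 0 in the KIT-labelled library. Psenen, a small subunit of the same complex, was the reverse, at 13.3 FPKM in the KIT-labelled library and listed at 0 in the THY1-labelled library. The Psenen value stands for about 2.7 to 3.4 fragments, and each of these listed zeros can be a failed estimate. Ncstn and Aph1b, also subunits, were above 0 in both libraries and are named after their values were seen. Ncstn was at 10.3 FPKM in the KIT-labelled library against 44.4, and Aph1b at 8.83 against 1.52. The subunits of a single enzyme therefore did not lie on one side.

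Nuclear partners split evenly. Of 9 counted activators, 4 were higher in each library, and those in the KIT-labelled library dropped to 2 with a pseudocount of 5 or a minimum of 5 FPKM. That is 44.4% on each side, near the 39.5% and 41.1% of all counted genes. The general acetyltransferases Ep300 and Crebbp were at 42.5 and 51.3 FPKM in the THY1-labelled library against 1.60 and 1.77, and the RBPJ partner Snw1 at 77.3 against 13.1. Rbpjl, an RBPJ relative that does not bind Notch, was at 22.2 FPKM in the KIT-labelled library against 1.05. Rbpj itself, the DNA-binding subunit of the pathway, named after its values were seen, was at 4.25 FPKM in the KIT-labelled library and at 0.199 FPKM in the THY1-labelled library, on an estimated 6.8 to 8.5 and 1.9 to 2.6 fragments. The Mastermind coactivators Maml1 and Maml2, also named so, were at 21.6 against 3.19 and 4.95 against 0.432 FPKM in the same order.

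Corepressors and genes of receptor turnover included the largest differences toward the THY1-labelled library among the pathway genes. Of 13 counted corepressors, 8 were higher there (5 of those above 0 in both libraries) and 2 in the KIT-labelled library (1 with a pseudocount of 5 or scaling to a median ratio of 1). These are 61.5% and 15.4%, beside 41.1% and 39.5% of all counted genes. Their median difference was -2.25, and -1.46 without the 3 counted genes listed at 0 in 1 library. The Groucho-family gene Aes was at 95.4 FPKM and Ctbp1 at 22.2 FPKM in the THY1-labelled library and each was listed at 0 in the other, and Hdac2, a histone deacetylase, was at 103 against 3.86 FPKM. Of 12 inhibitors and turnover genes, 5 were higher in the THY1-labelled library (8 with a pseudocount of 0.1 and 9 with scaling to a median ratio of 1) and 3 in the KIT-labelled library. These are 41.7% and 25%, the former near the share of all counted genes. The ubiquitin ligase Nedd4 was at 190 FPKM in the THY1-labelled library against 0.464 and Sel1l, of the degradation machinery of the endoplasmic reticulum, at 20.9 against 0.429, values that in the KIT-labelled library stand for about 0.75 to 0.99 fragments. Dtx1, a Deltex protein that binds Notch and is itself a Notch target in lymphocytes, was at 48.3 FPKM in the KIT-labelled library against 1.66.

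**Figure D3:**
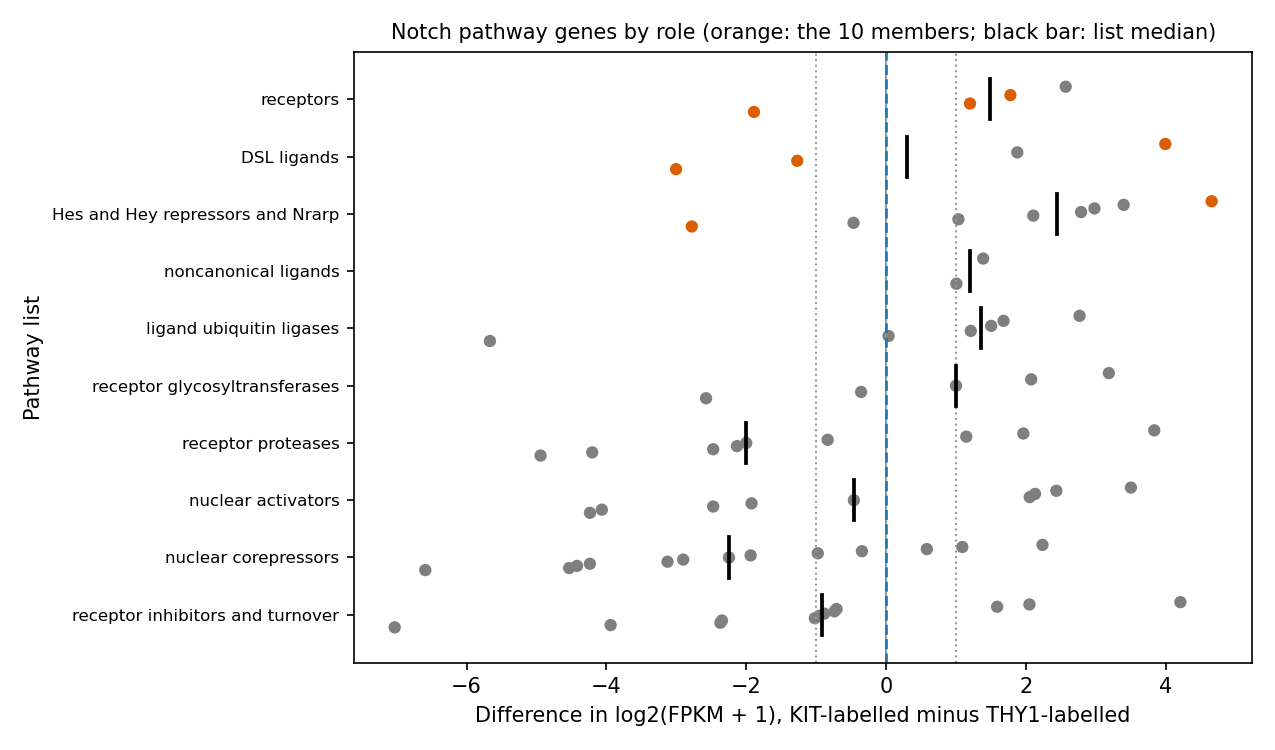
Difference in log2(FPKM + 1), KIT-labelled minus THY1-labelled, for pathway genes that reached 1 FPKM in either library, by role. Orange points are members, grey points other genes, black bars list medians, dotted lines 2-fold and the blue dashed line the median of all genes. The Hes and Hey list has a median of 2.45 and the corepressors one of -2.25.

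Over the 64 counted pathway genes outside the 10, 27 were higher in the KIT-labelled library (42.2%) and 24 in the THY1-labelled library (37.5%), close to the shares of all genes.

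The base composition of transcripts moved with the difference between the libraries. With genes split into quintiles by GC content of the longest coding transcript, the median difference of all genes ran from -0.86 in the lowest to 0.93 in the highest. In the highest quintile, 48.8% of genes had at least 2-fold higher values in the KIT-labelled library and 29.7% in the THY1-labelled library. Hes5 (62.1% GC), Notch3 (59.6%) and Notch1 (57.1%) are in it, and so is Jag2 (61.9%), which lay on the other side. The next quintile, where 41.5% and 38.1% of genes were higher in the KIT-labelled and THY1-labelled libraries, holds Dll1 (54.9%) and Notch2 (53.6%), which differed in opposite directions. Jag1 (48.8%) and Hes1 (50.7%) are in the middle one, where these shares were 37.5% and 42.8%. The differences of Notch1 (1.78) and Notch3 (1.20) are nearest to the median of their quintile, and those of Hes5 (4.66) and Dll1 (3.99) lie far above theirs. The part of GC content in the result was not tested.

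**Figure D4:**
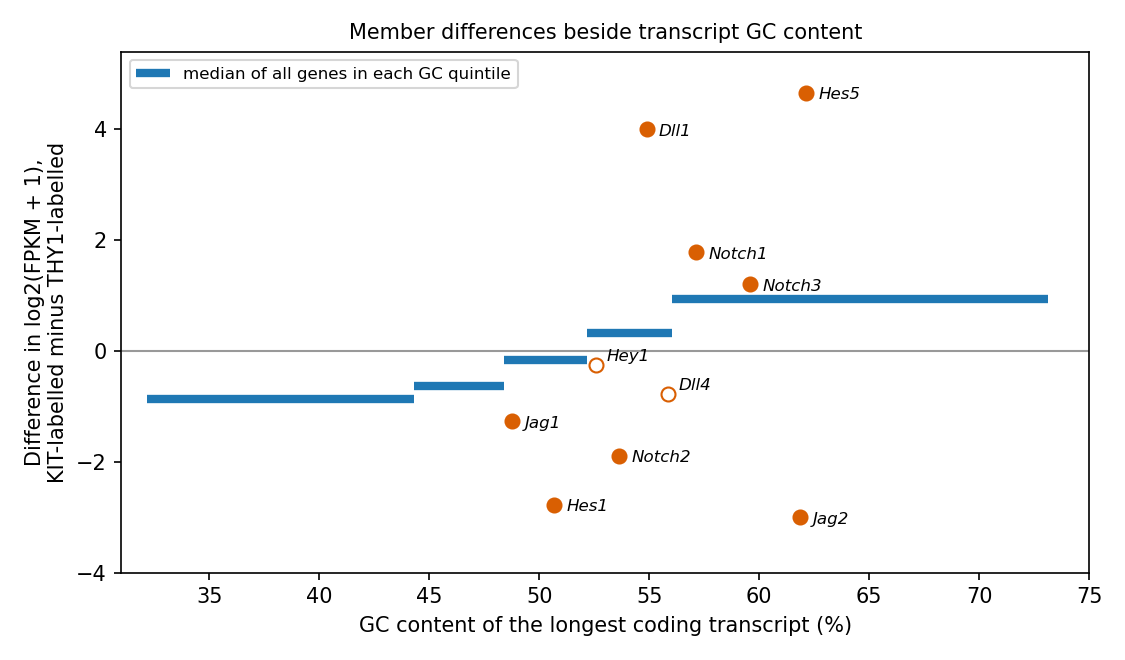
Difference in log2(FPKM + 1), KIT-labelled minus THY1-labelled, against GC content (%) of the longest coding transcript. Blue bars are medians of all genes in quintiles of GC content (from -0.86 to 0.93), filled orange points are the counted members and open points the members under 1 FPKM in both libraries. Jag2 is listed at 0 in the KIT-labelled library, so its position depends on the pseudocount.

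Antisense transcription could also add to some of these values, since the labels call the libraries directional but do not say whether strand was used in counting. In the GENCODE M21 annotation an exon of another gene overlaps exons of 6 of the 10 members. The partner is on the opposite strand for Notch1, Notch3, Dll1, Dll4 and Hes5, 5 of the 10 (30.1% of all counted genes that matched the annotation have one), and on the same strand for Notch2, so the 4 members higher in the KIT-labelled library all have such an opposite-strand partner and the 4 higher in the THY1-labelled library have none. Among all matched genes with an opposite-strand overlap, 43.7% were at least 2-fold higher in the KIT-labelled library and 34.1% in the THY1-labelled library, against 37.3% and 44.5% of genes without one. The part of such overlap in the members' values was not tested.

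Several Notch genes are typical of vessels or of other somatic cells, and markers of those cells differed between the libraries. Summed over 12 endothelial markers, FPKM was 85.8 in the KIT-labelled library and 14.6 in the THY1-labelled library, and 5 of 8 counted were higher in the former and 2 in the latter. Tek, an angiopoietin receptor, was at 46.6 against 3.47 FPKM and Cldn5, an endothelial tight junction gene, at 14.4 against 0.762, but the defining genes Pecam1, Vwf, Emcn and Robo4 were listed at 0 in the KIT-labelled library. Without Tek the endothelial sums were 39.2 and 11.2 FPKM. The 2 higher in the THY1-labelled library, named after their values were seen, were Cdh5 (0.649 against 3.30 FPKM) and Vwf (a listed 0 against 2.13). Over 9 smooth muscle and peritubular markers the sums were 228 and 56.3 FPKM and all 6 counted were higher in the KIT-labelled library, among them Tagln (155 against 47.2 FPKM), Cnn1 (16.9 against 0.272) and Cspg4 (9.77 against 0.884), while Des and Rgs5 were listed at 0 in both. T lymphocyte markers summed to 51.8 and 14.7 FPKM, 4 of 6 counted being higher in the KIT-labelled library and 1 in the other, with Cd5 at 27.5 against 2.95 and Cd8a at 10.2 against 0.777, and with Cd2 and Cd3g at 0 in both. The 1 on the other side, named after its values were seen, was Cd3d (2.21 against 7.41 FPKM). Without Cd5 the T lymphocyte sums were 24.3 and 11.7 FPKM.

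Leydig, Sertoli and meiotic markers had higher sums in the THY1-labelled library. Beside the counts in this paragraph, 41.1% of all counted genes were higher in the THY1-labelled library and 39.5% in the KIT-labelled library. Leydig markers summed to 165 FPKM in the KIT-labelled library and 6469 FPKM in the THY1-labelled library, with 6 of 7 higher in the latter and 0 in the former. Sertoli markers summed to 20.97 and 1248 FPKM, mostly from Clu (848 FPKM) and Vim (375 FPKM) in the THY1-labelled library, with 4 of 8 counted higher there and 3 in the other. Those 3, named after their values were seen, were Sox9 (2.87 against 0.227 FPKM, the KIT-labelled library first), Wt1 (5.30 against 1.45) and Amh (6.71 against 0.227). Besides Clu and Vim, the 4 were Gata4 (2.24 against 18.4) and Inha (a listed 0 against 1.25). The Sertoli sums therefore do not stand for the list as a whole. Meiotic spermatocyte genes summed to 166 and 1366 FPKM, and all 11 counted were higher in the THY1-labelled library. Macrophage markers split, with 4 of 9 higher in the KIT-labelled library, among them the complement gene C1qc (48.3 FPKM against a listed 0), and 3 in the other. Their sums of 260 FPKM in the KIT-labelled library and 965 FPKM in the other turn on Aif1 (24.5 against 880 FPKM), and the other 8 markers summed to 236 and 84.4 FPKM. Spermatogonial genes summed to 270 and 312 FPKM (268 and 172 without Ddx4, a general germ cell helicase), with 5 of 13 counted higher in the KIT-labelled library and 7 in the other. Some genes of undifferentiated spermatogonia other than Thy1, named after their values were seen, were on the former side: Nanos2 (54.1 against 1.49 FPKM), Nanos3 (118 against 2.74), Gfra1 (3.91 against 0.102) and Id4 (3.75 against 0.936). The lower Gfra1 value stands for about 0.83 to 1.1 fragments. Etv5 was at a listed 0 against 2.95, and Sall4 (0.702 against 0.345) did not reach 1 FPKM. Zbtb16 and Lin28a had no value above 0 in either library. Stra8, of differentiating cells, was at 0.743 against 34.1 FPKM, and Sohlh1, at 6.93 against 6.12, lay within 2-fold. Dmrt1 (a listed 0 against 4.98 FPKM), Sohlh2 (a listed 0 against 5.86) and Dazl (1.70 against 75.2) were also higher in the THY1-labelled library. The spermatogonial genes named here were picked with their values known, so no tally over them is drawn. In these bulk libraries the 10 genes cannot be assigned to a cell type, and the part of each cell type in their values was not tested.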

How the data were processed

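Of 13 samples, the 2 spermatogonial ones (1 library each) were analysed; each was grouped by its title. The deposited tables give 1 decimal value per gene symbol and name no unit. They were taken as FPKM made by the authors, because the submitters' processing notes name Cufflinks 2.1.1 (with TopHat 1.4.1, CASAVA and build mm9, without roles) and the values are not whole numbers. For annotation, filters and strand use in counting, nothing is stated in these sources. FPKM is divided by a total that holds very abundant RNA (Rpph1 made up 71.8% of summed FPKM in the KIT-labelled library and 37.9% in the other), which lowers all other values in that library.

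Differences were log2(FPKM + 1), KIT-labelled minus THY1-labelled, counted at 2-fold where the larger value reached 1 FPKM; this scale understates changes of low genes. With 1 library per group there is no test. Transcript length and GC content came from the longest coding transcript in GENCODE M21 (89.0% of symbols matched), and promoters from RefSeq (GRCm38.p6), so no coordinates of mm9 were used. The worth of 1 fragment was percentile 5 or 10 of FPKM times length among genes with 1 transcript over 1000 bases. The members and the 10 pathway and 8 marker lists were chosen with earlier results of these data known. Named genes are the 10 members, per pathway list up to 3 others that differ most and the 1 highest on average, and per marker list up to 2 and 1 likewise; exceptions are marked, and a gene that the rule names is not reported here. For brevity, marker genes of the last 4 lists are mostly given as sums. Counting was tested on simulated data. Python 3.11.15, numpy 2.4.6 and pandas 2.3.3 were used.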

Additional observations from a re-analysis of the deposited data

How the results depend on the processing

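The counts of 4 and 4 members higher in either library ranged from 3 to 4 under the 8 alternatives that give counts, and none of the 8 counted members changed direction in those or in the difference of rank percentiles. Notch2 fell short of 2-fold with a pseudocount of 5 (-0.998), and Notch3 with that pseudocount (0.72) and with scaling to a median ratio of 1 (0.73). The median difference of the members (-0.036) lies between opposite sets and has no stable sign: it was 0.050 with a pseudocount of 0.1, 0.21 and 0.16 with scaling to the same upper quartile and to the sum without Rpph1, 1.20 over genes above 0 in both libraries and 6.07 points by rank percentile, against -0.14 with a pseudocount of 5, -0.54 with scaling to a median ratio of 1 and -0.52 with no filter. Scaling moved the median of all genes by -0.56 (median ratio), 0.27 (upper quartile) and 0.22 (sum without Rpph1). Of 158 counts over the pathway lists under alternatives, 16 moved by over 1.5 times. No paired analysis was possible because each spermatogonial label has 1 library and no test was made. Depth limits the low values: Hes1 and Notch2 in the KIT-labelled library and Hes5 in the THY1-labelled library rest on an estimated 1.4 to 5.1 fragments. A level such as that of Dll4 was at the edge of detection in the KIT-labelled library, and one such as that of Hey1 was below the worth of 1 fragment there.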

Other observations

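Some other pathway genes with a close relative changed places between the libraries as the members did. These pairs were picked after their values were seen. The ligand ubiquitin ligase Mib2 was nearly level, at 7.15 FPKM in the KIT-labelled library and 6.95 FPKM in the THY1-labelled library, and stood at 7.95 times the level of Mib1 in the former and at 0.0728 times in the latter, all through Mib1. The histone deacetylase Hdac1 was at 3.30 times the level of Hdac2 in the KIT-labelled library and at 0.0186 times in the THY1-labelled library. The Deltex gene Dtx1 was at 14.6 times the level of Dtx2 in the former and at 0.0780 times in the latter. In the KIT-labelled library Mib1 stands for about 2.7 to 3.4 fragments, Hdac2 for 3.7 to 4.6 and Dtx2 for 2.6 to 3.2. The size of the ratios there is therefore poorly fixed. How often pairs of related genes change places among all genes was not counted.

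Of the 64 counted pathway genes outside the members, 13 lay within 2-fold (20.3%), near the 19.4% of all genes. Among them the corepressor Ncor1 was at 44.6 FPKM in the KIT-labelled library and 57.0 FPKM in the THY1-labelled library, and Rfng, of the Fringe family of receptor glycosyltransferases, was at 3.46 and 4.72 FPKM.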
